A study of Mus musculus with 9 samples.

Results

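The genes of the rod phototransduction cascade were followed in retinas of db/db and wild-type mice. The set held 9 of the 35397 genes in the expression table, chosen by name as the parts of the rod light response from transducin to the cyclic nucleotide-gated channel, together with rod arrestin. All 9 reached a mean of 1 FPKM (fragments scaled to transcript length and sequencing depth) over the libraries and were tested among 14588 genes. Retinal RNA was read in 4 db/db libraries (db/db 1, 3, 4 and 5) and 5 wild-type libraries (wild type 1 to 5). The db/db mouse carries a loss-of-function mutation of the leptin receptor gene in every cell, and is used as a model of obesity with type 2 diabetes. The labels give the genotype and the tissue, and neither the age, sex or strain background of the mice nor whether each library came from its own animal. The p-values therefore measure only how these libraries varied, which may be technical.

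Rods are the photoreceptors of dim light. In the rod outer segment a light-activated visual pigment switches on the G protein transducin, whose alpha subunit (Gnat1) leaves its beta and gamma subunits (Gnb1 and Gngt1) and releases the inhibitory gamma subunit (Pde6g) from the catalytic alpha and beta subunits (Pde6a and Pde6b) of the phosphodiesterase PDE6. The enzyme then breaks down cyclic GMP, the channel of Cnga1 and Cngb1 closes, and the cell hyperpolarises. Arrestin (Sag) ends the response by capping the phosphorylated pigment. Transcription of these genes in rods is known to depend on the factors CRX and NRL. Gnb1 also serves other cell types, whereas the remaining 8 genes are used mainly as rod genes.

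The promoter windows of 4 members are printed here because the results turn on how these genes compare. Sag was lower in every db/db library and Gngt1 varied most, while Pde6b stayed close to wild type and Cngb1 did so outside db/db 1. RefSeq promoter windows (GRCm38.p6) were searched for 6 of the 9 members, namely Gnb1, Gngt1, Pde6b, Cnga1, Cngb1 and Sag. The other members were not searched, and the motif counts do not cover them. Each window runs from 250 bases before to 50 bases after the start annotated in RefSeq, 5′ to 3′ on the gene's own strand: Sag at chr1:87803430-87803729 (plus), Gngt1 at chr6:3993758-3994057 (plus), Cngb1 at chr8:95306536-95306835 (minus) and Pde6b at chr5:108388123-108388422 (plus). The gene positions given below are from GENCODE, whose start can differ. Most of the Gngt1 window and all of the Cnga1 window lie inside those gene positions. Capitals mark a motif or its reverse complement. TAATCC is the core of a CRX-type element. The letters TGCTGA are the core of an NRL-type element. A TATA element was searched as TATAAA.
Sag: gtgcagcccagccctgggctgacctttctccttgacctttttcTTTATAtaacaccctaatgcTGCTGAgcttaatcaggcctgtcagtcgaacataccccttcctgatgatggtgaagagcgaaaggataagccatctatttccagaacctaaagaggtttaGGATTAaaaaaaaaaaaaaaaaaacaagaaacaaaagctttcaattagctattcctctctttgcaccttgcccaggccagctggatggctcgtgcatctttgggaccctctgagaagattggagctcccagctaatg
Gngt1: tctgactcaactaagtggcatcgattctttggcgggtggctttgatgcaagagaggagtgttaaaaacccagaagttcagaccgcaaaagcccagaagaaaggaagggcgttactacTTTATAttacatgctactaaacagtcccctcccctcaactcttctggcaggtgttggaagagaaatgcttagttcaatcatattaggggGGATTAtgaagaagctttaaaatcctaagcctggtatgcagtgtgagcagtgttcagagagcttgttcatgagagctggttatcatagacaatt
Cngb1: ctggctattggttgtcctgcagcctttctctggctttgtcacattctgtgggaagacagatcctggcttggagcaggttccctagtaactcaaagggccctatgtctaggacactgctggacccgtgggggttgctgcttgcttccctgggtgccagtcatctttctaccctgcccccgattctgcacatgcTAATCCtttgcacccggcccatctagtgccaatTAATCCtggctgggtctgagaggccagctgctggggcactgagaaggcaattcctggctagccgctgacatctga
Pde6b: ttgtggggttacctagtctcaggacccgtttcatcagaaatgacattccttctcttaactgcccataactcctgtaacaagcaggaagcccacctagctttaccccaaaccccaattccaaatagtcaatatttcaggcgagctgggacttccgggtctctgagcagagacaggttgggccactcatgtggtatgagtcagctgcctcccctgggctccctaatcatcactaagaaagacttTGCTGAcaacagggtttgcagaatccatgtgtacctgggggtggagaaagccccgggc
On either strand, TAATCC occurred in 4 of the 6 member windows (Gngt1, Cnga1, Cngb1 and Sag), against 7.06% of all 32851 windows of the same length. Cngb1 held it at both -58 and -25, counted from the RefSeq start, Gngt1 at -44 and Sag at -87. By the GENCODE gene positions, the matches in Gngt1 and Cnga1 lie inside the gene. TGCTGA occurred in 2 of the 6, at -8 in Pde6b and -187 in Sag, against 19.5% of all windows. TATAAA occurred in 2 of the 6, against 13.6% of all windows. Both matches were its reverse complement, at -133 in Gngt1 and -207 in Sag. The Gnb1 window held none of the letters searched. A match describes the letters in the window and does not show that a factor binds there.

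The libraries differed in ways that touch these genes. Depth, worked out from the steps between FPKM values, was 36.6 to 46.1 M reads in db/db and 43.0 to 47.9 M reads in wild type, and no member value rested on fewer than 24197 reads. The FPKM values of db/db 1 summed to 311179, against 252832 to 268139 in the other 8 libraries. In db/db 1 the quintile of tested genes with the shortest coding sequence lay at a median of 0.46 and the longest quintile at -0.33 on the log2 scale relative to the wild-type mean. In db/db 5 the quintile with the lowest transcript GC content lay at -0.21 and the highest quintile at 0.15, and in db/db 4 these medians were -0.15 and 0.06. Rod markers were present in all 9 libraries, and the summed FPKM of 11 rod markers was 8332 to 9978 in db/db and 8658 to 9333 in wild type. That list holds every member but Gnb1, with Nrl, Nr2e3 and Rom1. Its sum is therefore not separate from the members' own values. In bulk tissue, fewer rods and less RNA per rod cannot be told apart.

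With all 9 libraries, none of the 9 members was called higher or lower in db/db by limma at an adjusted p under 0.05, where 0.233% of all tested genes were called higher and 0.267% lower (0.5% in either direction). At an unadjusted p under 0.05 there was 1 member, Sag, against 19.3% of all tested genes, and limma-voom on recovered reads called 0 members. The groups did not overlap in 1 of the 9 members, again Sag, against 11.6% of all tested genes. The median log2 change of the members was -0.05, against 0.0035 over all tested genes. With db/db 1 left out, Gngt1 and Sag fell in db/db (2 of 9 members, where 5.84% of all tested genes were called lower), and no member rose, where 4.72% were called higher (10.6% in either direction). The same 2 members were those whose groups then did not overlap, against 21.1% of all tested genes. With array weights, which give less weight to variable libraries, 2 members were again called lower, against 4.5% of all tested genes.

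The members spanned a wide range of levels. Per length, Gnat1 was the highest, at 4329 ± 381 FPKM in db/db (SD, n = 4) and 4346 ± 177 FPKM in wild type (SD, n = 5), and it ranked 5 among all genes by its wild-type mean. Gnb1 followed at 1041 ± 53.4 FPKM in db/db and 1052 ± 33.1 FPKM in wild type. In wild type Pde6g came next, and the ranges of Pde6a, Sag and Pde6b then overlapped their neighbours in the order. Gngt1 lay below them, at 279 ± 136 FPKM in db/db and 291 ± 11.5 FPKM in wild type. Cngb1 (118 ± 12.6 FPKM in db/db and 123 ± 5.38 FPKM in wild type) and Cnga1 (116 ± 19.0 FPKM in db/db and 119.9 ± 6.0 FPKM in wild type) came last with overlapping ranges. In db/db the order by mean was the same at the top and bottom, but the range of Pde6g now reached that of Gnb1 and the range of Gngt1 reached that of Sag. Together the members made up 2.73% to 3.38% of the summed FPKM in db/db and 3.02% to 3.30% in wild type.

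**Figure D1:**
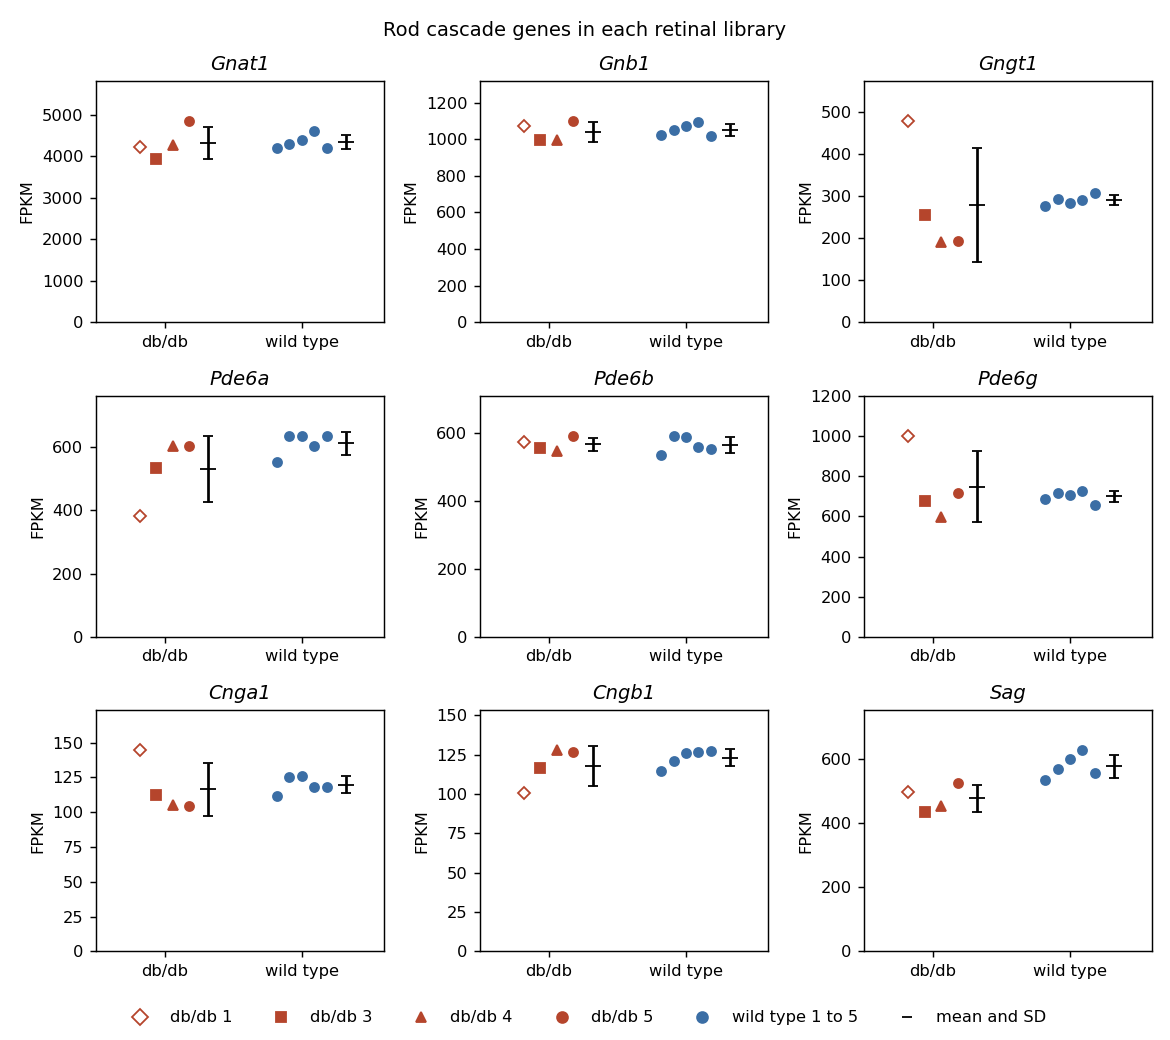
FPKM of each rod cascade gene in the 4 db/db libraries (red, one marker shape per library, db/db 1 open) and the 5 wild-type libraries (blue), with the mean and SD in black; every axis starts at 0. In the Sag panel, and in no other, do all db/db points lie below all wild-type points, and db/db 1 stands alone at the top for Gngt1, Pde6g and Cnga1 and at the bottom for Pde6a and Cngb1.

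Among the transducin subunits, alpha and beta were level between genotypes and gamma was not stable. Gnat1, the alpha subunit that carries the signal (ENSMUSG00000034837, chromosome 9, 107674474 to 107679712, mm10), had 4240.3, 3937, 4288 and 4852 FPKM in db/db 1, 3, 4 and 5, against 4205, 4305, 4399, 4626 and 4196 FPKM in wild type 1 to 5. The groups overlapped, with the lowest and the highest of the 9 values both in db/db. The log2 change was -0.01 (SE 0.09, limma adjusted p = 0.963), and the 95% interval of db/db over wild type was 0.864-fold to 1.14-fold. Gnb1, the beta subunit (ENSMUSG00000029064, chromosome 4, 155491361 to 155559269), had 1074, 993, 997 and 1098 FPKM in db/db, against 1021, 1052, 1073, 1095 and 1018 FPKM in wild type. The db/db values lay below, inside and just above the wild-type range, and the log2 change was -0.02 (SE 0.07, limma adjusted p = 0.913; interval of the fold 0.887 to 1.10).

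Gngt1, the gamma subunit that is farnesylated and helps to anchor transducin in the disc membrane (ENSMUSG00000029663, chromosome 6, 3993792 to 3997436), behaved differently from library to library. It had 478, 255, 191 and 193 FPKM in db/db 1, 3, 4 and 5, against 277, 294, 283, 292 and 307 FPKM in wild type. Thus db/db 1 lay above every wild-type library and the other 3 db/db libraries lay below every one, a 2.50-fold range within db/db against 1.11-fold within wild type. With all 9 libraries its log2 change was -0.16 (SE 0.24, limma adjusted p = 0.723), or 0.0094 with values corrected for GC content (adjusted p = 0.989). With db/db 1 left out its mean was 213 ± 36.1 FPKM in db/db (SD, n = 3), against 291 ± 11.5 FPKM in wild type (SD, n = 5), and it fell by 0.46 on the log2 scale (SE 0.09, limma adjusted p = 0.0212). Its longest transcript has 36.7% GC, the lowest of the members. With values corrected for GC content and db/db 1 left out the log2 change was -0.26 (limma adjusted p = 0.0487, where 2.33% of all tested genes were called lower).

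**Figure D2:**
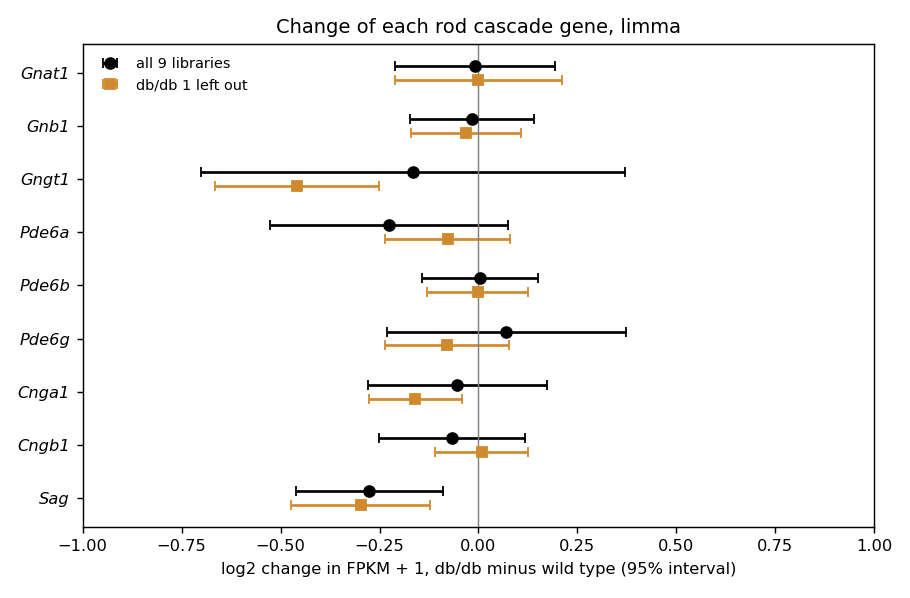
Log2 change of each rod cascade gene, db/db minus wild type, with its 95% interval from limma; black circles use all 9 libraries and orange squares leave out db/db 1. With all 9 libraries 8 of the 9 intervals span 0 and that of Sag runs from -0.46 to -0.09; without db/db 1 the interval of Gngt1 narrows to -0.67 to -0.25.

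The subunits of PDE6 diverged in db/db 1 and lay nearer to wild type in the other db/db libraries. Pde6a, a catalytic subunit (ENSMUSG00000024575, chromosome 18, 61220315 to 61289924), had 384, 534, 605 and 604 FPKM in db/db, against 554, 635, 636, 603 and 635 FPKM in wild type. Its 2 lowest values were those of db/db 1 and 3, while db/db 4 and 5 lay inside the wild-type range, and its log2 change was -0.23 (SE 0.13, limma adjusted p = 0.378). Pde6b, the partner catalytic subunit (ENSMUSG00000029491, chromosome 5, 108388391 to 108432397), had 574, 557, 547 and 593 FPKM in db/db, against 537, 593, 589, 561 and 552 FPKM in wild type. Its values were interleaved between genotypes, and limma gave a log2 change of 0.0035 (SE 0.07, adjusted p = 0.980), with the 95% interval at 0.905-fold to 1.11-fold. It was the only member whose coefficient of variation was lower in db/db (3.53%) than in wild type (4.25%). Pde6g, the inhibitory subunit (ENSMUSG00000025386, chromosome 11, 120447605 to 120453500), had 1002, 676, 599 and 717 FPKM in db/db, against 688, 716, 709, 728 and 659.6 FPKM in wild type. Here db/db 1 was the highest and db/db 4 the lowest of the 9, and the log2 change was 0.07 (SE 0.13, limma adjusted p = 0.792), or -0.08 with db/db 1 left out (adjusted p = 0.483). The annotation places the pseudogene Rps2-ps10 (mean 10.2 FPKM) on the opposite strand within Pde6a, so a small share of those reads may not be separate.

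The channel subunits moved in opposite directions in db/db 1. Cnga1, the subunit that can form a channel by itself (ENSMUSG00000067220, chromosome 5, 72603696 to 72644275), had 144, 112, 105 and 104 FPKM in db/db, against 112, 125.6, 126.06, 118 and 118 FPKM in wild type. The value of db/db 1 was above, and those of db/db 4 and 5 below, the whole wild-type range. Its log2 change was -0.05 (SE 0.10, limma adjusted p = 0.790), or -0.16 with db/db 1 left out (adjusted p = 0.0783), and -0.04 with the GC correction as well (adjusted p = 0.644). The pseudogene Gm5297 (mean 1.24 FPKM) overlaps it on the same strand. Cngb1, the modulatory subunit (ENSMUSG00000031789, chromosome 8, 95239045 to 95306585), had 101, 117, 128 and 127 FPKM in db/db, against 114, 121, 125.9, 127 and 127 FPKM in wild type. Here db/db 1 lay below the wild-type range and db/db 4 just above it, and the log2 change was -0.07 (SE 0.08, limma adjusted p = 0.675). A gene total does not separate the full-length channel subunit from the shorter glutamic acid-rich proteins made from the same gene.

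Sag, rod arrestin (ENSMUSG00000056055, chromosome 1, 87803680 to 87845158), was lower in all 4 db/db libraries than in any wild-type library. It had 497, 433, 453 and 524 FPKM in db/db 1, 3, 4 and 5, against 535, 569, 599, 625 and 555 FPKM in wild type 1 to 5. The groups did not overlap, although db/db 5 and wild type 1 were close. The means were 477 ± 41.5 FPKM in db/db (SD, n = 4) and 577 ± 35.9 FPKM in wild type (SD, n = 5), a ratio of 0.827. Its log2 change of -0.28 (SE 0.08, limma adjusted p = 0.124) did not pass with all 9 libraries. With db/db 1 left out it was -0.30 (SE 0.08, limma adjusted p = 0.0429), and with the GC correction as well -0.28 (adjusted p = 0.0662). Its sign was negative in each of the 24 alternatives run, from -0.38 to -0.23, with an adjusted p between 0.0379 and 0.462.

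**Figure D3:**
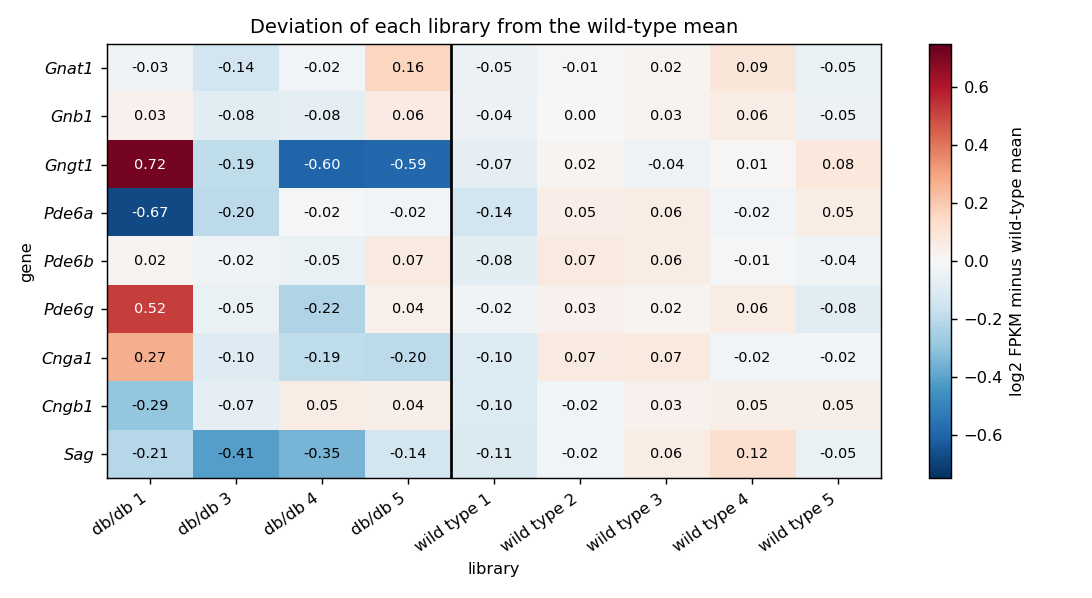
Log2 FPKM of each gene (rows) in each library (columns, db/db left of the black line) minus the mean of the wild-type libraries; red is higher and blue lower. The row of Sag is negative in all 4 db/db columns (-0.14 to -0.41), and the db/db 1 column runs from -0.67 for Pde6a to 0.72 for Gngt1.

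Read by library, the members spread widely in db/db and little in wild type. In db/db 1, 5 members lay above and 4 below the wild-type mean, and from lowest to highest they spanned 1.39 on the log2 scale. Below the range of the wild-type libraries lay 3, 5, 5 and 3 members in db/db 1, 3, 4 and 5, and above it 3, 0, 1 and 3. In db/db 3 all 9 lay below the wild-type mean, in db/db 4 there were 8 below, and in db/db 5 there were 4 below. All 9 also lay below it in wild type 1, and 1 to 6 did in the other wild-type libraries. The spans of db/db 3, 4 and 5 were 0.39, 0.66 and 0.75, against 0.09 to 0.16 in the wild-type libraries. In db/db 1 the members with the shortest coding sequences, Gngt1 (222 bases) and Pde6g (261 bases), were the highest relative to wild type. Pde6a (2580 bases) and Pde6b (2568 bases) stood at -0.67 and 0.02 in that library. Over the 9 members, Pearson r of coding length with the deviation in db/db 1 was -0.68, as a description, against -0.47 over all tested genes with a coding length. In db/db 5 the lowest deviations were those of Gngt1 (36.7% GC, -0.59) and Cnga1 (42.6% GC, -0.20), the members with the lowest GC content, and the highest was that of Gnat1 (54.1% GC, 0.16).

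**Figure D4:**
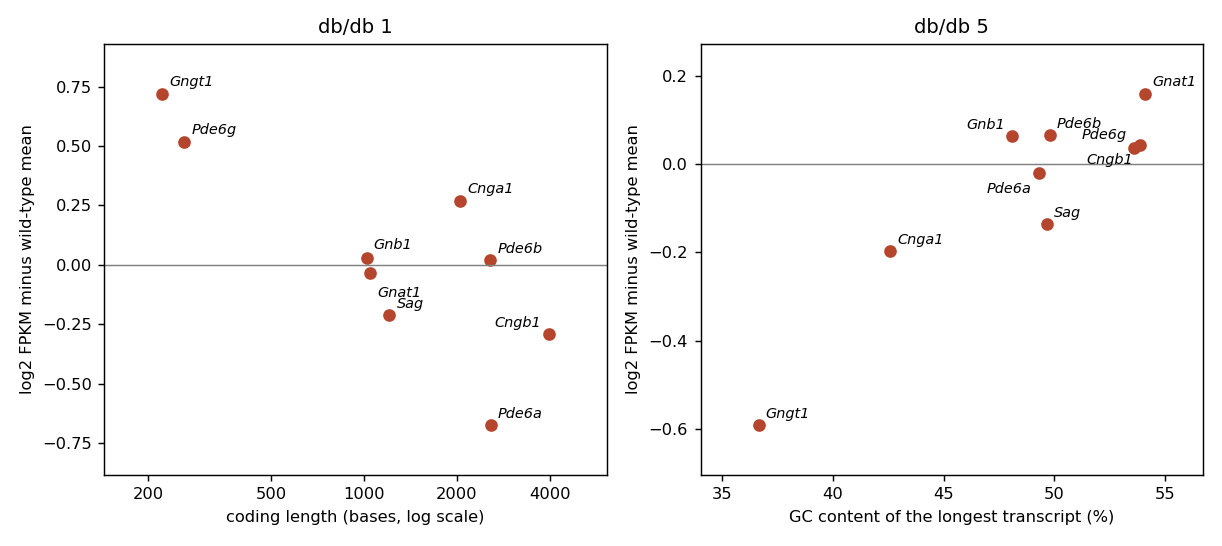
Log2 FPKM minus the wild-type mean for the 9 rod cascade genes, in db/db 1 against coding length (left, log axis) and in db/db 5 against the GC content of the longest annotated transcript (right). Gngt1 and Pde6g, with 222 and 261 coding bases, are highest in db/db 1, and Gngt1 and Cnga1, with 36.7% and 42.6% GC, are lowest in db/db 5.

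Ratios of genes within a library do not depend on its depth, and 15 were compared, 6 within the cascade and 9 of a rod gene over its cone counterpart. The ratio of transducin alpha to beta had like means in both genotypes, Gnat1 over Gnb1 being 4.16 ± 0.237 in db/db (SD, n = 4) and 4.13 ± 0.0536 in wild type (SD, n = 5; exact two-sided permutation p = 0.794, 0.884 adjusted over 15 ratios). The catalytic pair, Pde6a over Pde6b, had ratios of 0.668, 0.959, 1.10 and 1.02 in db/db, against 1.03, 1.07, 1.08, 1.08 and 1.15 in wild type. The pair was near unity in all libraries but db/db 1, where Pde6b exceeded Pde6a, and the difference between groups did not pass (exact permutation p = 0.0794, 0.238 adjusted over 15 ratios). Pde6g over Pde6b likewise peaked in db/db 1 at 1.75, with 1.09 to 1.21 in the remaining db/db libraries, against 1.19 to 1.30 in wild type (exact permutation p = 0.825, 0.884 adjusted). Cnga1 over Cngb1 had ratios of 1.44, 0.959, 0.821 and 0.824 in the db/db libraries, the highest in db/db 1, against 0.929 to 1.04 in wild type (exact permutation p = 0.944 before and after adjustment).

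Sag over Gnat1 separated the genotypes within the cascade. The ratio was 0.117, 0.110, 0.106 and 0.108 in db/db 1, 3, 4 and 5, against 0.127, 0.132, 0.136, 0.135 and 0.132 in wild type 1 to 5. All db/db values were below all wild-type values, db/db 1 included, and the fold between groups was 0.831. The exact two-sided permutation p was 0.00794, the smallest that regrouping these libraries can give, and 0.0298 adjusted over the 15 ratios. Over all tested genes, 2.21% had a ratio to Gnat1 that was likewise lower in every db/db library (6.46% in either direction). On values corrected for GC content the log2 difference was -0.19 (adjusted exact permutation p = 0.0397), against -0.27 before. Under quantile normalization it was -0.40 and did not pass (adjusted exact permutation p = 0.0595), nor did any other ratio. Gngt1 over Gnat1 did not separate the groups, at 0.113, 0.0646, 0.0446 and 0.0397 in db/db, against 0.0631 to 0.0731 in wild type (exact permutation p = 0.659, 0.823 adjusted).

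**Figure D5:**
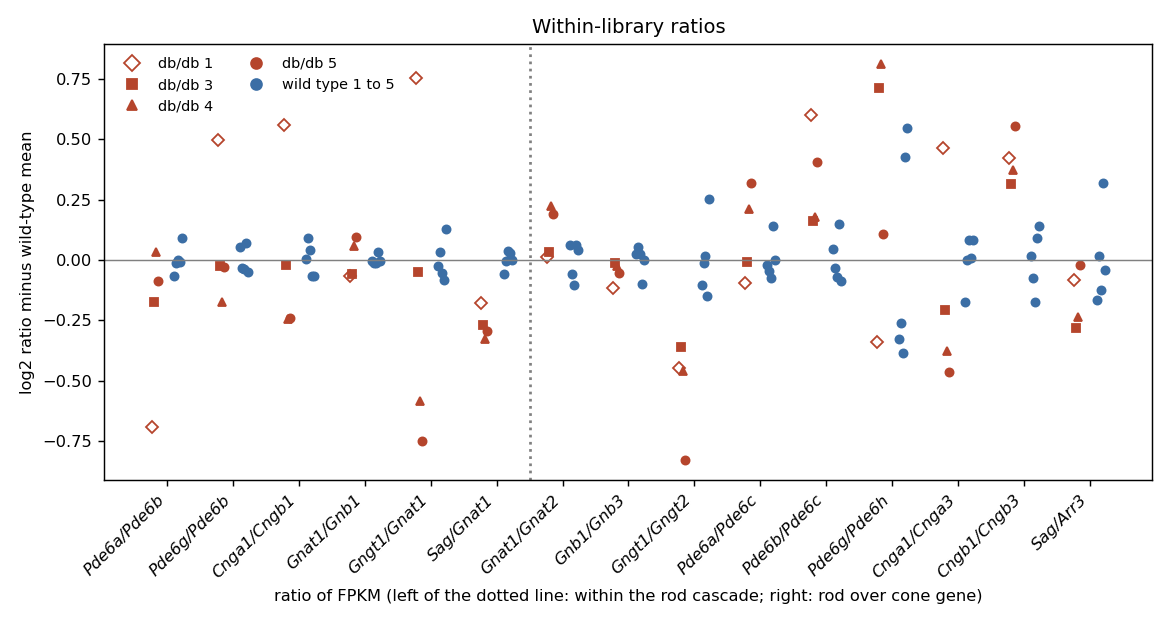
Log2 ratio of FPKM of the genes named below the axis, minus its wild-type mean, in the db/db libraries (red, left of each pair of columns, db/db 1 open) and the wild-type libraries (blue, right). Sag/Gnat1 and Gngt1/Gngt2 are lower, and Pde6b/Pde6c and Cngb1/Cngb3 higher, in all 4 db/db libraries than in any wild-type library; in Pde6a/Pde6b and Cnga1/Cngb1 db/db 1 lies apart.

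Cones use a parallel cascade built from related genes, and in whole retina every rod gene exceeded its cone counterpart per length. Sag over the cone arrestin gene Arr3 had the smallest mean ratio, 3.28 ± 0.284 in db/db (SD, n = 4) and 3.67 ± 0.519 in wild type (SD, n = 5; exact permutation p = 0.214, 0.402 adjusted). Pde6g over Pde6h, the inhibitory subunits, was variable, 87.8 ± 30.6 in db/db and 69.4 ± 22.3 in wild type (exact permutation p = 0.365, 0.548 adjusted). Gnat1 over the cone transducin alpha gene Gnat2 was 68.7 ± 5.09 in db/db and 63.4 ± 3.37 in wild type (exact permutation p = 0.151, 0.377 adjusted). Of the 9 rod-over-cone ratios 3 separated the groups fully, each with an exact permutation p of 0.00794 (0.0298 adjusted over 15 ratios). Gngt1 over Gngt2, the gamma subunits, was 12.04, 12.8, 11.9 and 9.25 in db/db, against 15.3, 16.3, 16.6, 14.8 and 19.6 in wild type, a fold of 0.695. Of all tested genes 7.01% had a ratio to Gngt2 that was lower in every db/db library, and after GC correction the log2 difference was -0.29 (adjusted exact permutation p = 0.0397), against -0.53 before.

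The other separated ratios were higher in db/db. Pde6b over the cone catalytic gene Pde6c was 26.1, 19.3, 19.5 and 22.8 in db/db, against 17.7, 16.8, 16.4, 19.05 and 16.2 in wild type, a fold of 1.26. The lowest db/db values and wild type 4 were close. The rod gene was level between genotypes, while Pde6c had 22.0, 28.9, 28.1 and 26.0 FPKM in db/db, against 30.2, 35.2, 36.0, 29.5 and 34.2 FPKM in wild type (log2 change -0.32, limma adjusted p = 0.122). Of all tested genes 20.1% had a ratio to Pde6c that was higher in every db/db library, so many genes shared the separation. Cngb1 over Cngb3 was 37.9 ± 2.74 in db/db (SD, n = 4) and 28.4 ± 2.46 in wild type (SD, n = 5), but 47.2% of all tested genes had such a ratio to Cngb3, and after GC correction the log2 difference was 0.10 (adjusted exact permutation p = 0.289), against 0.42 before. Cngb3 itself was low, at 3.12 ± 0.365 FPKM in db/db and 4.35 ± 0.413 FPKM in wild type (log2 change -0.38, limma adjusted p = 0.0735). The ratio of the arrestins, Sag over Arr3, overlapped between groups, at 3.44, 2.99, 3.09 and 3.59 in db/db, against 3.24, 3.68, 3.34, 4.55 and 3.54 in wild type.

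Other genes of the rod response were counted from lists of partners. Of 12 genes of shutoff and calcium feedback none was called with all 9 libraries, with 2 at an unadjusted p under 0.05, against 19.3% of all tested genes. The median log2 change of the list was -0.10, or 0.07 with db/db 1 left out. Guca1b, a calcium sensor that regulates guanylate cyclase, was among them (0.28, limma adjusted p = 0.226). Omitting db/db 1 put Guca1b at 0.16, and Gucy2f, a photoreceptor guanylate cyclase gene, then fell (limma adjusted p = 0.0211). Correcting those values for GC content moved Gucy2f from -0.25 to -0.13 on the log2 scale. That smaller change did not pass (limma adjusted p = 0.137). Rgs9, which speeds the GTPase of transducin, had 8.14, 83.4, 122 and 93.3 FPKM in the db/db libraries, the lowest in db/db 1, against 92.3 ± 8.16 FPKM in wild type (SD, n = 5), and was named after its values were seen.

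None of 12 folding and transport partners was called (median 0.12). Cct5, a subunit of the chaperonin that folds transducin beta, had the smallest p (0.31, limma adjusted p = 0.0979). Arl3, a GTPase that releases lipid-modified cargo in the outer segment, came next (0.23, adjusted p = 0.204). The groups did not overlap for Cct5, nor for Rp1, Prdm1 and Gnai2 below, where 11.6% of all tested genes did not overlap. Among the other list genes the same held for Pde6c, Cngb3, Gucy2f, Icmt and Neurod1. In the fit without db/db 1 Cct5 rose (limma adjusted p = 0.0307), Arl3 was at 0.14 and the median of the list was 0.02. Of 8 outer segment structure genes tested none was called (median -0.09), with Rp1 at -0.31 (adjusted p = 0.197) and Rom1 at 0.29 (adjusted p = 0.313). Omitting db/db 1 put the median at 0.02, Rp1 at -0.19 and Rom1 at 0.13. None of 9 photoreceptor transcription factor genes was called with all 9 libraries (median -0.05). Crx averaged 387 ± 21.7 FPKM in db/db (SD, n = 4) and 385 ± 16.1 FPKM in wild type (SD, n = 5), a log2 change of 0.0078 (limma adjusted p = 0.955). The log2 change of Nrl was 0.23 (limma adjusted p = 0.364), or 0.08 with db/db 1 left out. That of Nr2e3, a repressor of cone genes in rods, was -0.37 (limma adjusted p = 0.211), or -0.25 when db/db 1 was omitted. Gm15507 (mean 5.29 FPKM) overlaps Nr2e3 on the same strand and Gm7616 (mean 11.8 FPKM) on the opposite strand. Prdm1, which favours photoreceptor over bipolar fate, had the smallest p of that list (0.39, adjusted p = 0.0655) and rose, as did Mef2d, with db/db 1 left out. Of 11 tested relatives of the members, the cone gene Gngt2 among them, none was called (median 0.21, or 0.09 when db/db 1 was omitted). Gnai2 was at 0.21 (adjusted p = 0.155) and the ubiquitous arrestin gene Arrb2 at 0.30 (adjusted p = 0.151). Of the 10 cone genes none was called either (median -0.07). Without db/db 1 Cngb3 fell (limma adjusted p = 0.0284), which did not pass with the GC correction as well (adjusted p = 0.165).

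The genes whose profile over the 9 libraries was most like the mean profile of the members were Nipsnap2, Zkscan7, Acat2, Parp10 and Tipin, with Pearson r between 0.942 and 0.960 on log2(FPKM + 1). They were at most 26.6 FPKM in wild type, and r over 9 libraries that share depth and composition effects is a description only.

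Markers of other retinal and neighbouring cells were present in both groups, and no marker was called with all 9 libraries in any of the 12 lists. Some averaged under 1 FPKM and were not tested. They were 4 of 6 microglia, 4 of 7 lens, 2 of 4 horizontal cell and 2 of 8 pigment epithelium markers. The vascular and red blood cell lists each held 1 more. Without db/db 1, where 10.6% of all tested genes were called in either direction, some markers were called beside Gngt1 and Sag on the rod list. They were 3 of 8 Muller glia markers (1 higher, 2 lower) and 3 of 6 tested vascular markers (2 higher, 1 lower). The others were 1 of 7 amacrine markers (lower) and 1 of 2 tested microglia markers (lower). The summed FPKM of 8 cone markers was 497 to 562 in db/db and 518 to 575 in wild type, and that of 8 Muller glia markers 1369 to 1581 in db/db and 1269 to 1379.8 in wild type. Markers of neighbouring tissues varied more: the sum of 8 pigment epithelium markers was 81.1 to 406 in db/db and 118 to 189 in wild type, that of 7 lens markers 2.11 to 193 in db/db and 1.74 to 92.2 in wild type, and that of 5 red blood cell genes 21.7 to 72.6 in db/db and 14.6 to 26.1 in wild type. The highest sums of pigment epithelium and red blood cell markers were both in db/db 1, at 406 and 72.6 FPKM. Ganglion cell markers also summed highest in db/db 1, with a range of 272 to 391 in db/db and 246 to 283 in wild type, and amacrine markers lowest, with 136 to 179 in db/db and 171 to 176 in wild type. Sums of bipolar markers were 245 to 276 in db/db and 268 to 285 in wild type, of horizontal cell markers 13.2 to 20.7 in db/db and 14.6 to 15.5 in wild type, of vascular markers 42.9 to 50.2 in db/db and 41.3 to 48.1 in wild type, and of microglia markers 5.69 to 7.997 in db/db and 7.33 to 10.6 in wild type. No marker was at 0 in all libraries. Their part in the values of db/db 1 was not tested.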

How the data were processed

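RNA was extracted from retina on a Qiagen column and made into SMARTER libraries, per the labels' protocols. The authors deposited FPKM values per gene, and mm10 is the build named in the submitters' processing notes. How reads were aligned and counted, and whether by strand, is not given in the sources used here. Columns named Control and DR were matched by number to the wild-type and db/db samples, an inference from their names. Symbols, positions, coding lengths and GC content of the longest transcript came from GENCODE M21, which matched 34499 of 35397 identifiers.

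FPKM times union exon length moved in whole steps (98.95% to 99.1% of low values within 0.1 of a whole read), which gave the depth. Genes averaging 1 FPKM or more were fitted as log2(FPKM + 1), which understates changes of low genes, with limma 3.58.1 (R 4.3.3), an intensity trend and no covariate, and p-values were adjusted by Benjamini-Hochberg over 14588 genes. Ratios were compared by exact permutation over every regrouping of the libraries. The scripts were tested on simulated data. The members, lists and motifs were chosen with earlier results of these data known. The text names all members, cone counterparts in ratios, the 2 list genes with the smallest p where none passed, and the 5 genes most like the members. Crx, Nrl, Rgs9, Gucy2f, Mef2d, Icmt and Neurod1 fall outside that rule and were picked with values known. A list gene that the rule names is not reported here. GC correction subtracted each library's median deviation in 20 bins of genes. Other alternatives were another pseudocount, filter, variance model or scaling, array weights, limma-voom on recovered reads, leaving out libraries and the replicate number as a block. Corrections for coding length, and both corrections of the ratios, were added after the data were seen. Figures were drawn with matplotlib 3.10.9.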

Additional observations from a re-analysis of the deposited data

Results flagged for a closer look

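Among 84 sets of values looked at (members, named genes and ratios, in each genotype), 3 held a library far from the rest of its group, where chance alone flags about 1 in 20. Arrb2 had 21.6 FPKM in db/db 1, above the other db/db libraries. Gnb3 had 204 FPKM in wild type 4, above the other wild-type libraries. The ratio of Gnat1 to Gnb1 was 4.23 in wild type 4, against 4.09 to 4.12 in the other wild-type libraries.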

How the results depend on the processing

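No member was called higher in any of the 24 alternatives. The number called lower was 2 with array weights, 1 after GC correction when db/db 1 was omitted, and 0 to 2 with 1 library left out, the 2 being Gngt1 and Sag without db/db 1. The replicate numbers do not pair the libraries (r of deviations of same-numbered libraries 0.04, 0.05, -0.18 and 0.13), and with the replicate block 0 members were called. The number of ratios called was 0 under quantile normalization, 0 without db/db 1 and 4, 0 with the replicate block and 0 to 0 with 1 library left out. With fewer libraries the smallest adjusted p that 4 ratios can reach is 0.067 to 0.179.

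Some log2 changes that did not pass the test turned sign. Under quantile normalization Gnat1 was at 0.014, Pde6b -0.022, Pde6g -0.080, Gnb3 -0.033, Pde6g/Pde6b -0.058 and Cnga1/Cngb1 -0.030. Array weights gave Pde6b -0.015 and Pde6g -0.074, equal sums Pde6b -0.026, and median-of-ratios scaling Pde6b -0.0060. GC correction gave Gngt1 0.0094, Pde6g -0.0081, Cnga1 0.043, Gnb3 -0.083, Pde6g/Pde6b -0.0096, Gnat1/Gnb1 -0.071, Gngt1/Gnat1 0.097, Gnat1/Gnat2 -0.012, Gnb1/Gnb3 0.066 and Cnga1/Cnga3 0.0013. With db/db 1 also left out Pde6g was at -0.14, Gnb3 -0.089 and Rp1 0.0090. Coding length correction gave Pde6g -0.036, Cngb1 0.0011, Gnb3 -0.0036, Pde6g/Pde6b -0.081 and Cnga1/Cngb1 -0.040. Without db/db 1 and 4, Gnat1 was at 0.0091, Pde6g -0.0065, Pde6g/Pde6b -0.028 and Cnga1/Cngb1 -0.13. With 1 library left out the ranges were -0.065 to 0.036 for Gnat1, -0.043 to 0.0058 for Gnb1, -0.017 to 0.021 for Pde6b, -0.079 to 0.17 for Pde6g, -0.11 to 0.0080 for Cngb1, -0.0014 to 0.075 for Gnb3, -0.56 to 0.014 for Pde6h, -0.077 to 0.15 for Pde6g/Pde6b, -0.17 to 0.10 for Cnga1/Cngb1, -0.022 to 0.032 for Gnat1/Gnb1 and -0.46 to 0.041 for Gngt1/Gnat1. The cause was not tested.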
